A study of Mus musculus with 3 samples.

Results

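The 10 genes described here are the Notch receptors Notch1, Notch2, Notch3 and Notch4, the ligands Dll4, Jag1 and Jag2, the glycosyltransferase gene Mfng, and the target genes Hes1 and Hey1, out of 18193 genes on a mouse expression array. They were read through all 19 probe sets that the platform annotation gives to 1 of them alone. The choice of these genes was made with values of these arrays in view, so their levels and differences are given as a description. The cells were lymphatic endothelial cells of mouse skin, isolated by fluorescence-activated sorting from ImmortoMice (H-2Kb-tsA58), whose cells carry a temperature-sensitive large T antigen of SV40 behind an interferon-inducible promoter. All 3 cultures carried that transgene and differ by passage number: 1 culture at passage 13, 1 at passage 14 and 1 at passage 18. Each was grown at 33 °C with interferon-gamma and then kept for 3 days at 37 °C without it, a step meant to remove the T antigen. The cells are thus a cultured, conditionally immortalized model of lymphatic endothelium, and each passage is a single culture with no replicate of its own. The labels used here do not say whether the cultures trace back to 1 isolation.

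Notch receptors are single-pass membrane proteins that are activated by ligands of the Delta-like and Jagged families on a neighbouring cell. Ligand binding opens the receptor to cleavage by ADAM proteases and then by gamma-secretase, and the freed intracellular domain enters the nucleus, joins the DNA-binding protein RBPJ and a Mastermind coactivator, and switches on genes such as those of the Hes and Hey repressors. Fringe enzymes such as the one encoded by Mfng add sugars to the receptor and shift its preference between Delta-like and Jagged ligands. In blood vessels Dll4 and Notch1 restrain the formation of tip cells and promote arterial identity, Notch4 is largely restricted to endothelium, and Notch3 is best known from smooth muscle cells and pericytes.

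Values are signal intensities as deposited, whose scale is not stated and was taken as linear from their range, and differences are given on the log2 scale or as folds. A gene was represented by its brightest probe set and called detected when it lay above a floor on all 3 arrays. The floor was the 95th percentile of 44 genes typical of other tissues, such as liver or retina, and stood at 67.9, 62.4 and 52.4 intensity units at passages 13, 14 and 18. By this call 8559 of 18193 genes were detected. All 7 pan-endothelial markers, among them Cdh5 and Pecam1, were detected. So were the lymphatic markers Pdpn, Lyve1, Flt4 and Nrp2, 4 of 8 measured, but these were not level over the cultures. Lyve1 gave 1375, 2929 and 162.9 units at passages 13, 14 and 18, and was 8.44-fold lower at passage 18 than at passage 13. Flt4 (2039, 1869 and 919.7 units) and Nrp2 (1067, 882.5 and 564.1 units) were also lowest at passage 18. Pdpn was lowest at passage 14 (4615, 1933 and 3715 units). Prox1, the master transcription factor of lymphatic fate, was above the floor at passage 13 alone (73.4, 34.5 and 48.6 intensity units). Reln, Itga9 and Mmrn1 were below it on all 3 arrays. Of 7 blood endothelial markers 3 were detected (42.9%), Plvap, Efnb2 and Flt1. Nos3 was above the floor at passage 14 alone, and Vwf, Gja5 and Sox17 were below it on all 3 arrays. The label of endothelium is thus borne out by its markers. That of lymphatic endothelium is borne out only in part, since 50% of its markers were detected, against 47% of all genes, and blood endothelial markers were detected too. The passage 18 array had a 3' to 5' signal ratio of the Gapdh controls of 19.4, against 8.59 at passage 13 and 7.10 at passage 14, and one of the Actb controls of 1.42, against 1.18 and 1.20. Intensities of different probe sets depend on their probes and are not compared between genes.

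Of the 10 genes, Notch1, Notch2, Notch4, Jag1 and Hey1 were detected (5 of 10, against 47% of all genes). Mfng was above the floor at passage 14 alone and Notch3 at passage 18 alone. Dll4, Jag2 and Hes1 were below it on every array, which sets only an upper limit on their transcripts. By their brightest probe sets, none of the 10 genes was highest at passage 13, although the other Jag1 probe sets were. Notch1, Notch4, Dll4, Jag2 and Mfng read highest at passage 14, and Notch2, Notch3, Jag1, Hes1 and Hey1 read highest at passage 18 by that measure, in which Jag1 rests on 1 of its 3 probe sets. Among all 18193 genes measured 29.2% were highest at passage 13, 37.3% at passage 14 and 33.5% at passage 18. The SD of log2 intensity over the 3 cultures was 0.41 for Notch1, 0.44 for Jag1, 0.49 for Hey1, 0.99 for Notch4 and 1.04 for Notch2 (n = 3).

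**Figure D1:**
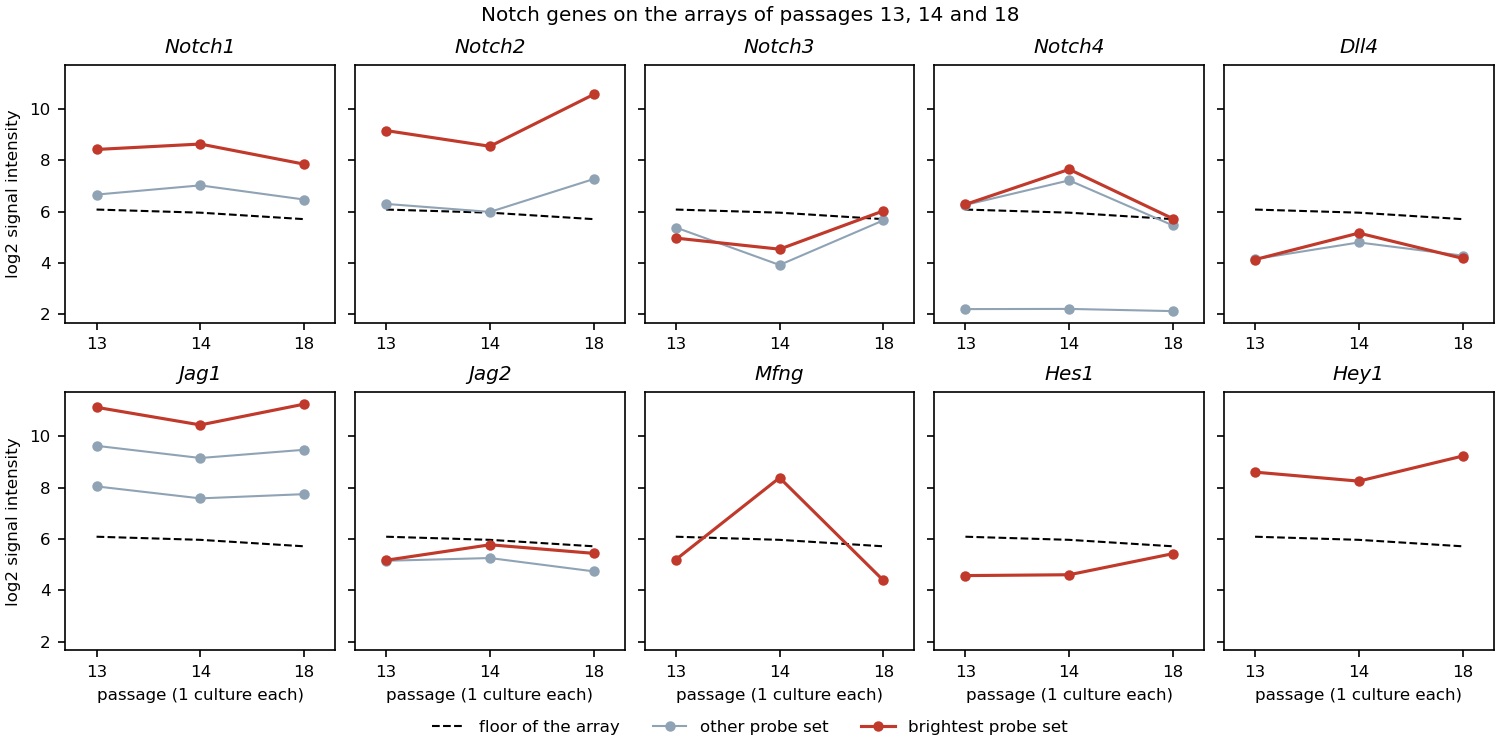
Log2 signal intensity (vertical axis) of every probe set of the 10 genes at passages 13, 14 and 18 (horizontal axis, evenly spaced), 1 culture each. Red points are the brightest probe set of a gene, grey points its other probe sets and the dashed line the floor of each array; Notch4 and Mfng peak at passage 14 and Notch2 at passage 18.

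Among the receptors, Notch4 and Notch2 lay furthest apart between the cultures, in opposite directions. Notch4, the receptor largely restricted to endothelium, gave 78.0 intensity units at passage 13, 201.0 at passage 14 and 53.0 at passage 18 by its probe set 1449146_at. It was 2.58-fold higher at passage 14 than at passage 13 and 3.79-fold lower at passage 18 than at passage 14, and its passage 18 value lay just above the floor of 52.4. A second probe set, 1456263_at, gave the same order with 76.9, 149.3 and 44.2 units, the last below the floor. The third, 1436901_at, read between 4.37 and 4.64 units on the 3 arrays, far below the floor, and carries no information on the differences. Probe sets of a gene were read on the same RNA and are not replicates of a culture.

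Notch2, a receptor of broad tissue distribution, stood the other way. Its probe set 1455556_at gave 572.2 units at passage 13, 374.6 at passage 14 and 1519 at passage 18. The passage 18 culture was thus 2.65-fold above passage 13 and 4.05-fold above passage 14. The second Notch2 probe set, 1451889_at, gave the same order with a narrower range, 79.0, 63.7 and 154.7 units, all above the floor. Only 0.561% of detected genes had a larger positive difference than Notch2 between passages 18 and 13. The passage 18 array is the one with the Gapdh ratio of 19.4.

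Notch1, which acts with Dll4 in arterial identity and in restraining tip cells, differed less. Its probe set 1418634_at gave 343.8 units at passage 13, 398.0 at passage 14 and 231.2 at passage 18, a log2 difference of -0.78 between passages 18 and 14 and of 0.21 between passages 14 and 13. The other Notch1 probe set, 1418633_at, had the same order at 101.7, 130.4 and 89.0 units. Both orders match that of Notch4, with passage 14 high and passage 18 low. Notch3, the receptor of mural cells, was dim: 1421965_s_at gave 31.4, 23.3 and 65.5 units and 1421964_at gave 41.8, 15.2 and 50.7 units at passages 13, 14 and 18. Only the passage 18 reading of the first lay above the floor, where Notch3 was at least 1.05-fold above passage 14. That reading is under the passage 13 floor of 67.9, so Notch3 cannot be placed above passage 13. The name of this probe set also marks possible matches to related transcripts.

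Shown here are the 300-base promoter windows of the 4 receptor genes, from 250 bases before to 50 bases after the annotated start. By their brightest probe sets, Notch1 and Notch4 read highest at passage 14 and Notch2 and Notch3 at passage 18. Notch3 was below the floor at passages 13 and 14, so its place is not settled. The windows were taken from RefSeq on assembly GRCm38.p6, which gave a window for 7 of the 10 genes by symbol. Capitals mark the GC box letters GGGCGG, bound by Sp1-type factors, and the AP-1 letters TGACTCA, on either strand. Notch4 lies at chr17:34564045-34564344 on the plus strand, Notch1 at chr2:26503773-26504072 on the minus strand, Notch2 at chr3:98013288-98013587 on the plus strand and Notch3 at chr17:32166841-32167140 on the minus strand, each sequence written 5′ to 3′ along its gene.
Notch4: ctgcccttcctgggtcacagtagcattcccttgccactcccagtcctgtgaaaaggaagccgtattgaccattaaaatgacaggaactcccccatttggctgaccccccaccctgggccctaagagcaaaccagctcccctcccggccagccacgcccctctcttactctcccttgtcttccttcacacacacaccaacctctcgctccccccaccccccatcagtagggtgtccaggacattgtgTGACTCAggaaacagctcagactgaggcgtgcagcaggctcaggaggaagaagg
Notch1: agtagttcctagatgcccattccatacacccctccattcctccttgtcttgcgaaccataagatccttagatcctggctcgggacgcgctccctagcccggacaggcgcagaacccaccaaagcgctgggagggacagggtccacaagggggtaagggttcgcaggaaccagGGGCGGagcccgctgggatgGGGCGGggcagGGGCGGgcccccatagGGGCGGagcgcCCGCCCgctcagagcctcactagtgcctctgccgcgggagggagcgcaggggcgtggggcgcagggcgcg
Notch2: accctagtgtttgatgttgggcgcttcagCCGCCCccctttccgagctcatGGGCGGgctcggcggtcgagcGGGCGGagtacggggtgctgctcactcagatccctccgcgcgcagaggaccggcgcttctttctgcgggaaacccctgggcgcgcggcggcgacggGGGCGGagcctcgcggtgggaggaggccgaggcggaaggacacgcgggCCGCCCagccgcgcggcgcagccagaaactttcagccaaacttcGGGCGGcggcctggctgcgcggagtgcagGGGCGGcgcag
Notch3: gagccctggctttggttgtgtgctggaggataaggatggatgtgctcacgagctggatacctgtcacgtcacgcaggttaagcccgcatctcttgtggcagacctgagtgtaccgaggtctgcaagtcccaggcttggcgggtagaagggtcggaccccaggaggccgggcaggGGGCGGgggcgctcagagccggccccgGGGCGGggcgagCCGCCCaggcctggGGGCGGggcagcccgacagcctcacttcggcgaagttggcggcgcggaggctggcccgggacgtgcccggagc

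The Notch4 window differs from the other receptor windows in its letters, that of Notch1 included. Whether the letters bear on the readings was not tested. The Notch4 window holds 0 GC boxes and 5 CpG dinucleotides at a GC content of 58.3%, whereas Notch1 holds 5 GC boxes, 23 CpGs and 68.3% GC. Notch2 holds 7 GC boxes, 41 CpGs and 73.0% GC, and Notch3 holds 4 GC boxes, 25 CpGs and 70.0% GC. Of 32851 promoter windows of this length, 35.7% hold a GC box, and the median CpG number is 7. The AP-1 letters stand in the Notch4 window at bases 247 to 253, across the annotated start, and in no other of the 7 windows; they are in 5.2% of all windows. The RBPJ core TGGGAA, found in 25.6% of all windows on either strand, is in 0 of the 7, and so are the E-box CACGTG (7.15% of all windows), the ETS core CCGGAA (14.9%) and the TATA letters TATAAA (13.6%). These motifs were chosen with the windows in view, a match is not evidence of binding, and a missing match says only that the letters are not in this window.

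**Figure D2:**
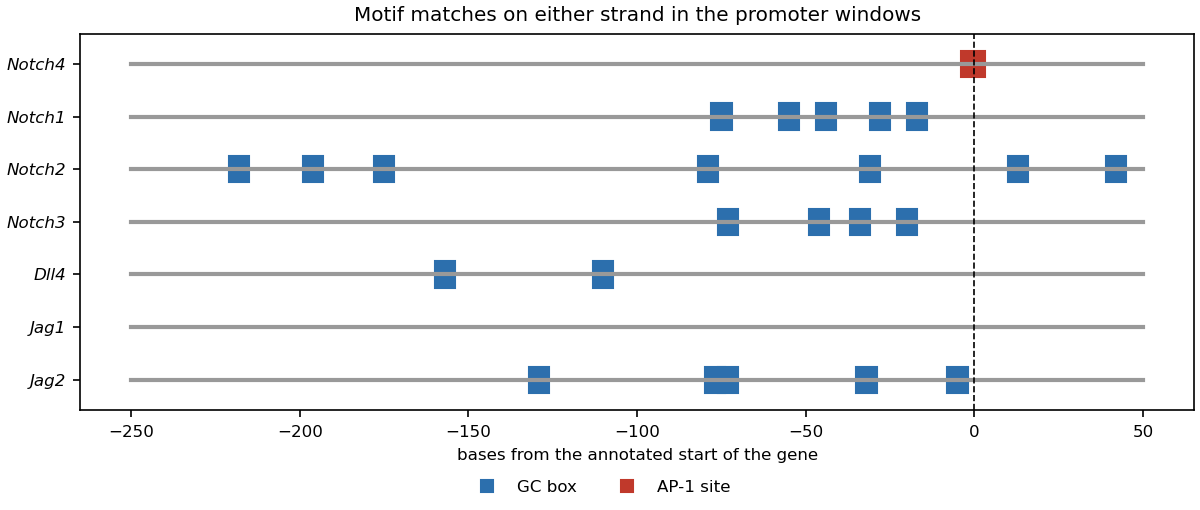
Positions of the GC box and AP-1 letters on either strand in the promoter windows of 7 genes, in bases from the annotated start (horizontal axis). Notch4 and Jag1 hold no GC box, and the AP-1 letters occur in Notch4 alone.

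Among the ligands, Jag1, a Jagged ligand of endothelium and many other tissues, was detected by all 3 of its probe sets. The brightest, 1434070_at, gave 2234 units at passage 13, 1388 at passage 14 and 2434 at passage 18. It was lower at passage 14 than at passage 13 by 0.69 on the log2 scale, and 0.81 higher at passage 18 than at passage 14. The other probe sets gave 789.7, 568.4 and 709.6 units and 264.0, 191.1 and 214.2 units. All 3 put passage 14 lowest, but they disagree on the other cultures: 1 placed passage 18 above passage 13 and 2 placed it below, so no direction between those cultures can be given for Jag1.

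Dll4, the Delta-like ligand of arterial and tip cells, was below the floor throughout. Its probe sets read 17.6, 36.0 and 18.2 units and 17.8, 28.0 and 19.6 units at passages 13, 14 and 18. Both were brightest at passage 14, a difference under the floor that gives no fold. Jag2, another Jagged ligand, also stayed below the floor, at 36.0, 54.6 and 43.3 units by 1426430_at and 35.5, 38.2 and 26.6 units by 1426431_at. Its brighter probe set came above the floor on every array when the floor was set at the 90th percentile of the other-tissue genes, between 29.2 and 34.9 units.

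Mfng, the Manic Fringe glycosyltransferase, had the widest range of the 10 genes. Its single probe set, 1416992_at, gave 36.6 units at passage 13, 333.6 at passage 14 and 20.9 at passage 18. The passage 13 and passage 18 values lie below the floor, so Mfng at passage 14 was at least 4.91-fold above passage 13 and at least 6.37-fold above passage 18. With all values raised to the floor, 4 of the 9025 genes above the floor at passage 14 exceeded the other cultures by more than Mfng did. For Notch4 that number was 66. Mfng is in that set only through its passage 14 value and was chosen with these values in view, so nothing is read from its rank. Of all 18193 genes, 1.06% were above the floor at passage 14 alone, as Mfng was, and 2.67% at passage 18 alone, as Notch3 was. The other fringe genes did not share this order: Lfng stayed below the floor at 31.3, 37.0 and 39.5 units, and Rfng was detected at 103.8, 87.1 and 107.5 units.

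The target genes Hey1 and Hes1, both repressors of the basic helix-loop-helix type, read highest at passage 18. Hey1 gave 388.1 units at passage 13, 304.4 at passage 14 and 599.1 at passage 18 by its single probe set, a 1.54-fold excess of passage 18 over passage 13 and a 1.97-fold excess over passage 14. Hes1 gave 23.8, 24.3 and 43.0 units, all below the floor. The order of Hey1, with passage 14 low and passage 18 high, is that of Notch2 and the opposite of that of Notch1, Notch4 and Mfng.

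Of the 5 detected Notch genes, Notch2 and Notch4 passed a 2-fold difference between cultures and Notch1, Jag1 and Hey1 did not. The shares of all detected genes are given beside these counts, and nothing is read from the comparison, since the genes were chosen with these values in view. Between passages 14 and 13, Notch4 was at least 2-fold higher and 0 of the other 4 detected genes differed by that much, where 1.81% of all detected genes were at least 2-fold higher and 2.76% at least 2-fold lower. Between passages 18 and 13, Notch2 was at least 2-fold higher and 0 were lower by that much, where the shares of all detected genes were 1.79% and 2.01%. Between passages 18 and 14, Notch2 was at least 2-fold higher and Notch4 at least 2-fold lower, where the shares were 6.1% and 5.26%. Over all 10 genes the median log2 difference was 0.12 for passage 14 minus 13, 0.20 for passage 18 minus 13 and 0.24 for passage 18 minus 14, while the medians of all 18193 genes were 0, -0.01 and -0.02. These medians sum genes that lay in opposite directions and include values below the floor. The 3 comparisons share arrays and are not independent of each other.

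**Figure D3:**
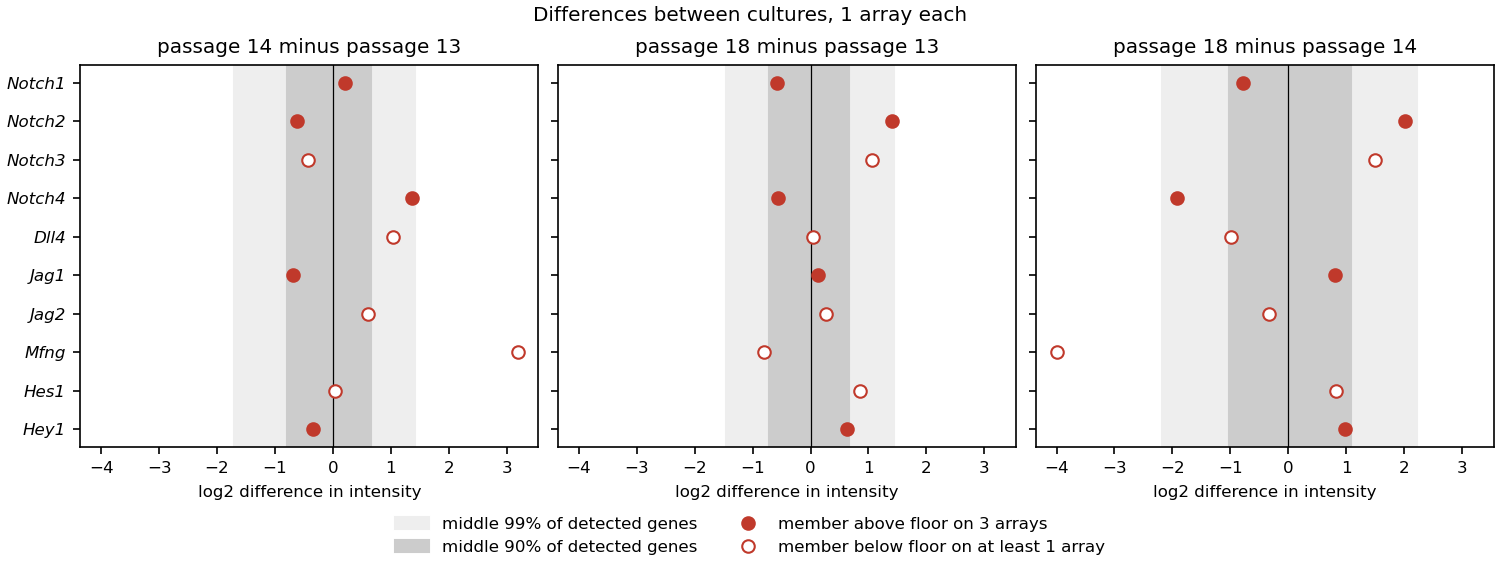
Log2 difference in intensity (horizontal axis) of each of the 10 genes for each pair of cultures, with the middle 90% and 99% of the 8559 detected genes as grey bands. Filled points are genes above the floor on 3 arrays and open points genes below it on at least 1; Mfng lies outside the 99% band in the comparisons with passage 14, and Notch2 and Notch4 lie within it at its edges.

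No gene of the array passed a test for a trend with passage number, in which limma fits all genes at once on 1 residual degree of freedom each. The number called was 0 of 9185 genes with an adjusted p under 0.05 (0%), with 307 at an unadjusted p under 0.05 and a smallest adjusted p of 0.894. The readings of Notch1, Notch2, Notch4 and Hey1 did not follow passage number, since passage 14 rather than passage 13 stood furthest from passage 18.

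The rest of the pathway was examined through a list of 62 further genes, of which 57 were measured and 34 detected (59.6%, against 47% of all genes). The machinery that processes and reads the receptor was mostly present. Detected were 7 of 8 measured genes of receptor cleavage, 8 of 10 of the nuclear complex, 3 of 4 of receptor glycosylation, 3 of 6 of ligand endocytosis, 5 of 9 of turnover and inhibition, 7 of 16 listed targets and 1 of 4 further ligands. The detected ligand was Dll1, a Delta-like ligand, at 119.3, 93.1 and 63.2 units at passages 13, 14 and 18. Adam10, the protease of the first ligand-dependent cut, gave 2174, 2049 and 2041 units by its brightest probe set, nearly level over the cultures, while 2 others gave 899.8, 1020 and 755.1 units and 715.9, 824.7 and 570.3 units, highest at passage 14 and lowest at passage 18. Rbpj, the DNA-binding partner of all 4 receptors, gave 506.7, 307.1 and 497.9 units, lowest at passage 14, and its other probe sets, at 433.5, 304.3 and 380.2 units and 283.7, 194.7 and 239.8 units, were also lowest there.

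Of these 34 detected genes, 4 targets differed at least 2-fold between a pair of cultures and no other gene did. Between passages 18 and 14, 2 were at least 2-fold higher and 2 at least 2-fold lower, against 6.1% and 5.26% of all detected genes, so these shares lie near the background. Between the other pairs of cultures 0 of the 34 were past 2-fold. Nrarp, a feedback inhibitor that binds the Notch intracellular domain, gave 830.5, 1557 and 555.4 units at passages 13, 14 and 18, the order of Notch1 and Notch4. Its second probe set gave 100.9, 208.2 and 48.7 units in that order too. Myc, a growth-promoting transcription factor, gave 924.3, 1370 and 613.9 units by a probe set whose name marks possible matches to related transcripts. Unc5b, a netrin receptor of endothelium, gave 970.1, 528.1 and 1422 units, and Efnb2, the arterial ephrin ligand, 1587, 1168 and 2760 units, the order of Hey1 and Notch2. The second Unc5b probe set shared that order at 58.8, 35.6 and 95.2 units, as did 3 of the 4 Efnb2 probe sets, while the fourth gave 85.1, 120.4 and 125.9 units.

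The listed targets thus lay on both sides. Nrarp and Myc were 2.80-fold and 2.23-fold lower at passage 18 than at passage 14, whereas Unc5b and Efnb2 were 2.69-fold and 2.36-fold higher and Hey1 1.97-fold higher. A further Hey gene, Hey2, read 34.7, 12.2 and 90.1 units at passages 13, 14 and 18 and was above the floor at passage 18 alone, where it was at least 1.44-fold above passage 14. Cxcr4, a chemokine receptor of tip cells, read 16.6, 595.9 and 8.58 units and was above the floor at passage 14 alone, at least 8.78-fold above passage 13, the order of Mfng. Hey2 and Cxcr4 are named after their values were seen. Hes5 and Heyl, other target genes of this family, were below the floor on all 3 arrays.

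**Figure D4:**
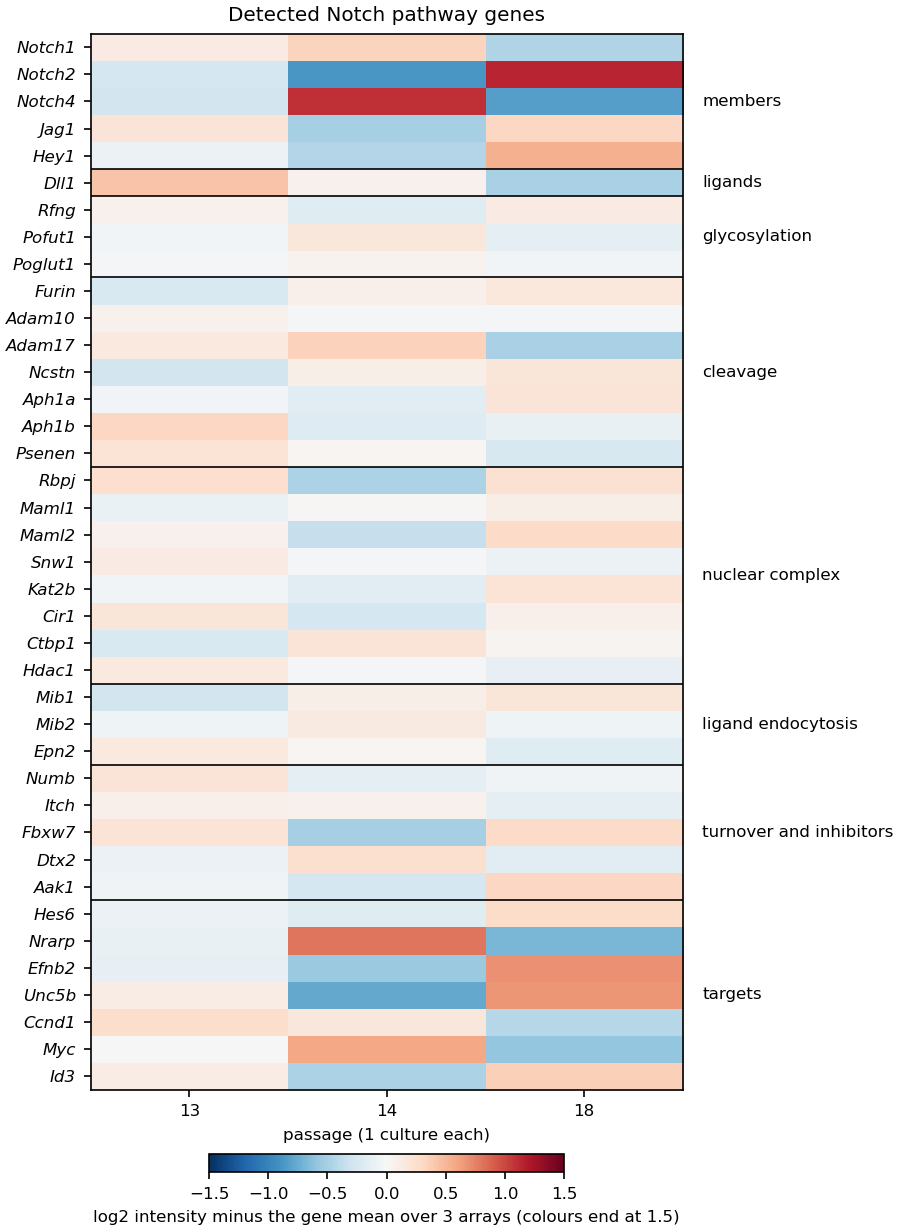
Log2 intensity of each detected gene minus its own mean over the 3 arrays (colour), at passages 13, 14 and 18 (columns), for 5 of the 10 genes and 34 further pathway genes grouped by role (rows). Notch4, Nrarp and Myc are high at passage 14 and low at passage 18, and Notch2, Hey1, Efnb2 and Unc5b show the opposite.

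Marker genes of other cell types and of proliferation also differed between the cultures, and their part in the Notch values was not tested. In bulk RNA, fewer cells of a type and less RNA per cell cannot be told apart. Of 12 mural and smooth muscle markers 4 were detected, Acta2, Tagln, Pdgfrb and Mcam (33.3%, against 47% of all genes). The list had a summed intensity of 6783, 1241 and 7827 units at passages 13, 14 and 18, mostly from Acta2 and Tagln. The other 8, Myh11, Cnn1, Rgs5, Cspg4, Des, Kcnj8, Abcc9 and Higd1b, never came above the floor. The detected ones differed in order. Acta2, smooth muscle actin, gave 1467, 308.0 and 5289 units. Pdgfrb, a receptor of pericytes and fibroblasts, gave 77.9, 66.0 and 206.3 units. Both were highest at passage 18 as Notch2 was, while Notch3 was above the floor at that passage alone. Tagln, an actin-binding protein of smooth muscle, gave 4535, 618.6 and 1756 units and the adhesion molecule gene Mcam 557.2, 110.5 and 420.8 units, both highest at passage 13. Of 9 fibroblast markers 4 were detected (44.4%, against 47% of all genes), with sums of 3353, 1913 and 4267 units. Pdgfra, Dcn, Lum and Dpt were below the floor throughout. The collagen genes Col1a1, at 262.9, 92.8 and 1228 units, and Col3a1, at 198.7, 203.2 and 775.9 units, were highest at passage 18, and Col1a2, at 100.7, 15.9 and 318.4 units, was too, though below the floor at passage 14. Thy1, at 2496, 1414 and 1723 units, and Fbln1, at 240.8, 135.1 and 129.6 units, were highest at passage 13, and Thy1 makes up much of the sum.

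The culture in which Notch4 and Mfng were high was also the one with the highest proliferation markers. All 5 measured cell cycle genes were highest at passage 14, with summed intensities of 2076, 5851 and 1362 units. The 7 pan-endothelial markers summed to 16786, 15524 and 11934 units, of which Emcn alone gave 9152, 7216 and 6835. Each of the 7 was lowest at passage 18. The 1 leukocyte marker detected of 5 measured (20%, against 47% of all genes) was Cd68, at 126.9, 243.9 and 58.1 units. Ptprc never came above the floor. Of 4 keratinocyte markers 0 were detected. The high readings of Notch2 and Hey1 come from the array with the Gapdh ratio of 19.4, as does the only Notch3 reading above the floor. The part of this array in them was not tested. The low readings of Notch1, Notch4 and Mfng at passage 18 come from that array too, and its part in those was not tested either. The arrays of passages 13 and 14, between which Notch4 and Mfng also differed, had Gapdh ratios of 8.59 and 7.10.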

How the data were processed

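Signal intensities were deposited by the authors as 1 table of 45101 probe sets and 3 arrays, taken as linear from their range. MAS5 is named in the submitters' processing notes, and how the intensity values were scaled is not given in the sources used here. RNA was amplified in a linear isothermal reaction and labelled with biotin, per the labels' protocols. The array medians were 25.7, 26.0 and 26.3, so no further normalization was applied. Of the probe sets, 34945 were annotated to 1 gene and 932 to several, which were not named. Symbols were updated through Entrez identifiers to RefSeq GRCm38.p6, which matched for 34741. For each of 18193 genes the probe set brightest on average in log2 intensity was used, which can hide disagreement. Of 44 other-tissue genes, Apoa2 and Prm1 passed the floor themselves. The trend used limma 3.58.1 under R 4.3.3, with an intensity-dependent prior in eBayes, for genes whose mean exceeded the mean floor, and Benjamini-Hochberg adjustment. Its p-values reflect only how these 3 cultures spread, and precision is limited by the number of arrays. Every other value was computed in Python 3.11.15.

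The genes and lists were chosen with earlier results of these data known. The text names all 10 genes, the detected further pathway genes past 2-fold between cultures, examples of each role, the listed markers, and the 5 genes nearest in pattern to the detected member with the widest range. Alternatives were floors at the 90th and 99th percentile, the median of probe sets, leaving out probe sets named for cross-matches, quantile and median scaling, a pseudocount of 16, raising values to the floor, no filter, another contrast and leaving out each culture. Some listed pathway genes were not analysed here.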

Additional observations from a re-analysis of the deposited data

How the results depend on the processing

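The number of detected Notch genes was between 4 and 6 of 10 under every alternative tried. The share of all genes detected moved too, from 36.3% with the floor at the 99th percentile to 55% with it at the 90th, against 47%. Nothing particular to the Notch genes is read from these counts. Jag2 joined with the floor at the 90th percentile, with the median of probe sets and without probe sets named for cross-matches, and Notch4 dropped out with the floor at the 99th percentile. Without any 1 of the 3 cultures the number stayed at 5. The further pathway genes detected numbered 29 to 40, fewest with the floor at the 99th percentile and most with it at the 90th, as over all genes. At least 2-fold between passages 14 and 13 were 0 genes with the median of probe sets, where 1456263_at stood for Notch4 with a difference of 0.96, and 2 genes with values raised to the floor, Notch4 and Mfng. The median difference of the 10 genes between passages 18 and 13 became -0.37 with values raised to the floor, which by construction gives genes below the floor the difference of the floors. The medians of the other comparisons also changed sign there, to -0.12 between passages 14 and 13 and -0.25 between 18 and 14, and the last was -0.05 with the median of probe sets, so these medians carry no direction. Of 180 single-gene differences under an alternative, 0 with a 2-fold call changed direction, and the 10 that changed sign were those of Dll4, Jag2, Hes1, Notch3 and Jag1. The trend called 0 genes under all 6 alternatives, with between 318 and 697 genes at an unadjusted p under 0.05 in limma. Values below the floors of 52.4 to 67.9 units limit what can be said of Dll4, Jag2 and Hes1 on all arrays and of Notch3 and Mfng on 2 of 3. Without passage 18 the slope per passage was -0.61 for Notch2 and 1.37 for Notch4, against 0.35 and -0.22 with all 3 cultures. No paired analysis was possible because there is only 1 group of cultures.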

Other observations

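Transcription factors that act beside Notch in endothelium also differed between the cultures. Sox18, a factor of early lymphatic specification, gave 598.9, 1236 and 234.6 units at passages 13, 14 and 18, the order of Notch4. Foxc2, a factor of lymphatic valves, gave 782.9, 266.8 and 954.8 units and its relative Foxc1 72.1, 52.2 and 307.2 units, the order of Notch2, with Foxc1 below the floor at passage 14. Nr2f2, which represses Notch signalling in venous endothelium, was nearly level at 1427, 1226 and 1440 units, and Ephb4, the venous receptor of Efnb2, gave 341.1, 367.2 and 231.7 units. Sox17, an arterial factor, was below the floor on all 3 arrays.

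Among the 8559 detected genes, 16 had values over the 3 arrays within a Euclidean distance of 0.25 log2 units of those of Notch2 once each gene was centred on its own mean. The nearest were Ildr2 at 165.2, 109.0 and 449.6 units, Itgb5, an integrin chain, at 111.6, 66.7 and 280.4 units, and Npr3, the natriuretic peptide clearance receptor, at 554.4, 374.0 and 1617 units. Wwc1 and Zfp503 followed, at distances of 0.11 and 0.14. With 3 arrays such likeness is a description of these cultures only.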
